A study of Mus musculus with 16 samples.

Results

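The myelin and oligodendrocyte genes described here were Mbp, Mog, Mag, Mobp, Cnp, Opalin, Cldn11, Ermn and Mal. They were chosen by name, as 9 of the 47593 genes in the count table, and all 9 were among the 16553 genes with enough reads to be tested. The tissue was cerebral cortex of 5xFAD mice, a line that expresses mutant human transgenes from the neuron-specific Thy1 promoter and deposits amyloid-β. All mice carried the transgenes heterozygously on a C57BL/6 and SJL hybrid background and were 5 months old. They had eaten a vehicle diet (the encapsulation material alone) or a rapamycin diet with 14 ppm of active compound from 2 months of age. Rapamycin inhibits the kinase mTOR. Each sex and diet had 4 libraries, and of the 16 libraries 11 belonged to batch 1 and 5 to batch 2, as the labels name them. No mice without the transgenes were among the libraries. The study's text describes cortical samples pooled for sequencing and gives another number of mice per group than its labels do. The labels do not say whether a library holds 1 mouse or several, so p-values measure the spread between libraries.

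Myelin is the stack of compacted membrane that oligodendrocytes wrap around axons in the central nervous system, and it speeds the conduction of impulses. Its proteins fall into those that hold the membrane layers together, those that face the axon or the outside, and those that organise the cytoplasm and junctions of the sheath. The RNAs of Mbp and Mobp are carried out into the myelin processes and translated there, and the kinase mTOR is known to take part in oligodendrocyte differentiation and myelination.

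Mbp encodes myelin basic protein, which compacts the cytoplasmic faces of the membrane, and its count also holds transcripts of the longer Golli form that share its exons. Mobp (chromosome 9, 120149742 to 120181484 on GRCm38, plus strand) encodes another basic protein of compact myelin. Cnp (chromosome 11, 100574904 to 100591729, plus strand) encodes a phosphodiesterase that keeps the cytoplasmic channels of the sheath open. Mag (chromosome 7, 30899176 to 30914873, minus strand) encodes an adhesion receptor of the innermost wrap that contacts the axon. Mog (chromosome 17, 37010743 to 37023398, minus strand) encodes an immunoglobulin-like protein of the outermost surface. Cldn11 (chromosome 3, 31149920 to 31164324, plus strand) encodes the claudin that seals the layers with tight junctions. Mal (chromosome 2, 127633226 to 127656695, minus strand) encodes a proteolipid that takes part in the sorting of membrane to myelin. Ermn (chromosome 2, 58045113 to 58052864, minus strand) encodes ermin, a cytoskeletal protein of mature oligodendrocytes, and Opalin (chromosome 19, 41062474 to 41077113, minus strand) encodes a transmembrane protein of these cells.

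The bases before the start of 3 members are shown because the text returns to them. Mobp and Mal had the largest estimates of a diet difference over both sexes, and Mag had the one estimate in the opposite direction. Each is the 250 bases upstream of a RefSeq gene start on GRCm38.p6, 5′ to 3′ on the strand of the gene. Capitals mark the letters of 2 motifs of factors that act in oligodendrocytes, searched on both strands: the SOX core (ACAAAG or ACAATG, read as CTTTGT or CATTGT on the other strand) and the MYRF core (CTGGCAC or CTGGTAC, read as GTGCCAG or GTACCAG).
Mobp (chr9:120149492-120149741, plus strand): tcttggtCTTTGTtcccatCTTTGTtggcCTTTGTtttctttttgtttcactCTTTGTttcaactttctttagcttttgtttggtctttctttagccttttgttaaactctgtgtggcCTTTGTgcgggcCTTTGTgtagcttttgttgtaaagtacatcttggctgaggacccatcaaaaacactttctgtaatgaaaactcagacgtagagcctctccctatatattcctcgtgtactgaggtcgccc
Mal (chr2:127656696-127656945, minus strand): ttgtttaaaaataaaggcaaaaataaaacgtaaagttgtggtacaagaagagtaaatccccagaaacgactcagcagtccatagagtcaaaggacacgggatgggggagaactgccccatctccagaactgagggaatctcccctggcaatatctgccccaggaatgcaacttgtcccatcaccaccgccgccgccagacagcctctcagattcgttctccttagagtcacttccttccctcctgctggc
Mag (chr7:30914864-30915113, minus strand): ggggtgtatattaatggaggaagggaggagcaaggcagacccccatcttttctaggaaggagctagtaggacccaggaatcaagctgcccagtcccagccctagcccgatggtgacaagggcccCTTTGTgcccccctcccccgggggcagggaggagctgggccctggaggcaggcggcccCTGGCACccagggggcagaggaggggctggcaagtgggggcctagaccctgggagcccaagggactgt
The Mobp window held 6 SOX cores and no MYRF core. The Mal window held neither. The Mag window, from the 1 of its 3 RefSeq starts that lies nearest to the gene in the count table, held 1 of each. A window was used for 8 of the 9 members, 10 windows in all. A SOX core stood in a window of 5 of the 8 (Mag, Mobp, Cnp, Opalin and Ermn), which was 6 of the 10 windows, and 25.2% of all 32851 windows of the same length held one. A MYRF core stood in a window of 3 of the 8 (Mog, Mag and Cnp), which was 4 of the 10 windows, against 5.93% of all windows. The Mag windows overlap and share matches. No matches overlapped in these windows, and a match is a description of the letters, not of binding.

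The libraries held 16393501 to 20593089 read pairs assigned to genes, and even the lowest count of a member, Opalin with 246 read pairs, leaves counting error small beside the spread between libraries. Male rapamycin 4, as labelled, carried 9935 read pairs of Xist and 0 over 4 Y-linked genes, which goes against the label. The members' male and interaction results and the both-sexes estimates of Mobp and Mal are therefore also given without it. All other results, those of the gene lists among them, are given only with it in its labelled group. The share of mitochondrially encoded reads ran from 2.64% to 5.47% in vehicle and from 3.75% to 6.99% in rapamycin libraries. In each library the departure of every gene from its mean was also regressed on exon length, giving a slope in log2 CPM per doubling of length. The slope ran from 0.00040 to 0.100 in vehicle and from -0.127 to 0.064 in rapamycin libraries, so the lowest slopes and the highest mitochondrial shares were in rapamycin libraries.

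All 9 members were well expressed. Levels are given as CPM, the count divided by the library's total after edgeR's TMM scaling and set to a common size for all libraries. Per kilobase of exon the order of mean levels was Mbp, Mobp, Cnp, Cldn11, Mal, Mag, Mog, Ermn and Opalin. Mbp stood first with 296 ± 102 CPM per kb (SD, n = 16) and exceeded Mobp, with 117 ± 43.9 CPM per kb, in 16 of 16 libraries. The neighbours Mobp and Cnp kept their order in 15 libraries, Cnp and Cldn11 in 14, and Cldn11 and Mal, at 82.9 ± 26.0 and 76.3 ± 21.7 CPM per kb, in 12, so these 4 lay within each other's spread. Mal exceeded Mag, Mag exceeded Mog and Mog exceeded Ermn in all 16 libraries. Opalin was lowest with 11.4 ± 3.40 CPM per kb and was below Ermn in 15 libraries. Of the summed CPM of the 9 genes, Mbp alone took 54.5% to 61.8% and Mobp 16.2% to 21.1%.

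The cells that make myelin in peripheral nerve were checked with 9 Schwann cell markers. Pmp2, a lipid-binding protein of Schwann cells, was at 0 in all 16 libraries. The markers summed to between 90.6 and 153 CPM in vehicle and between 87.5 and 155 CPM in rapamycin libraries, most of it from Drp2 and Pmp22, which are not confined to Schwann cells.

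Over both sexes, 8 of the 9 members had a higher estimate in rapamycin than in vehicle mice and Mag a lower one, but none passed the test. edgeR's quasi-likelihood test, with sex and batch as terms, called 0 of 9 members at an adjusted p under 0.05, whereas 13.3% of all tested genes were called. At an unadjusted p under 0.05 there were 3 members (Mbp, Mobp and Mal), against 30.4% of all genes. DESeq2 with the same terms called 2, Mobp and Mal, against 18.6% of all genes. The median estimate of the members was 0.20 on the log2 scale and that of all genes was 0.02. The members' median was 0.09 without female rapamycin replicate 2, 0.12 without female vehicle replicate 4 and 0.30 without male rapamycin replicate 1. The vehicle and rapamycin libraries overlapped for each of the 9 members, while 0.489% of all genes did not overlap. Without the filter on low counts edgeR called 3 members (Mbp, Mobp and Mal), against 8.68% of the genes it then tested.

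Mobp had the largest estimate. In female vehicle mice it stood at 500.0, 804, 529 and 527 CPM, and in female rapamycin mice at 1079, 1558, 912 and 535 CPM. In male vehicle mice it stood at 651, 679, 813 and 557 CPM, and in male rapamycin mice at 509.9, 1004, 596 and 872 CPM. Of the female rapamycin libraries, 3 of 4 lay above every female vehicle library and replicate 5 lay among them, whereas the male groups were interleaved. The difference over both sexes was 0.50 ± 0.19 (log2, SE; 95% interval 0.10 to 0.91; edgeR adjusted p = 0.0885). DESeq2 gave an adjusted p of 0.0438. The Mobp window shown above is the one with 6 SOX cores.

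Mal was next in size and had the smallest p of the members. It stood at 149.8, 234, 149 and 122 CPM in female vehicle and at 223, 346, 261 and 174 CPM in female rapamycin libraries. It stood at 229, 190.0, 244 and 152 CPM in male vehicle and at 172, 295, 197 and 252 CPM in male rapamycin libraries. A single female vehicle library, replicate 2, lay above the lowest female rapamycin libraries, and in males 2 of the 4 rapamycin libraries lay above every vehicle library. These were male rapamycin 2 and male rapamycin 4. The difference over both sexes was 0.44 ± 0.16 (log2, SE; 95% interval 0.11 to 0.78; edgeR adjusted p = 0.0730; DESeq2 adjusted p = 0.0358). The calls of Mobp and Mal turned on single libraries: without male rapamycin replicate 1 edgeR called both, at adjusted p = 0.0294 and 0.0267, and without male rapamycin replicate 3 it did so at 0.0421 and 0.0380. Those fits called 2603 of 16901 and 2926 of 16915 genes in all, against 2205 of 16553 with every library. Without female rapamycin replicate 2 the adjusted p was 0.216 for Mobp and 0.185 for Mal. Without male rapamycin replicate 4, whose sex genes go against its label, Mobp was at 0.45 (log2, edgeR adjusted p = 0.151). Mal was then at 0.41 (log2, edgeR adjusted p = 0.115).

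Mbp stood at 1765, 2703, 1511 and 1944 CPM in female vehicle and at 3022, 5032, 2975 and 1930 CPM in female rapamycin libraries. In males it stood at 2253, 2338, 2837 and 1901 CPM under vehicle and at 1783, 3247, 1919 and 2593 CPM under rapamycin. The highest value of all, 5032 CPM in female rapamycin 2, was 3.33 times the lowest. The difference over both sexes was 0.40 ± 0.19 (log2, SE; 95% interval 0.00 to 0.79; edgeR adjusted p = 0.163). Cldn11 ran from 104 to 184 CPM with a median of 137 CPM in the 8 vehicle libraries and from 103 to 288 CPM with a median of 172 CPM in the 8 rapamycin libraries. Its difference was 0.30 ± 0.18 (log2, SE; 95% interval -0.08 to 0.69; edgeR adjusted p = 0.280). Without female rapamycin replicate 2 the estimate was 0.23 for Mbp and 0.16 for Cldn11. The other members with a positive estimate were Mog, Opalin, Cnp and Ermn, at 0.20, 0.14, 0.14 and 0.13 (log2), with adjusted p between 0.477 and 0.678.

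Mag was the one member with a negative estimate. It ran from 114 to 239.9 CPM with a median of 181 CPM in vehicle and from 106 to 255 CPM with a median of 160.2 CPM in rapamycin libraries, so the ranges nearly coincided. The difference was -0.07 ± 0.17 (log2, SE; 95% interval -0.43 to 0.30; edgeR adjusted p = 0.825), and without female vehicle replicate 2 it was 0.03. Set against Mobp, which was done after their values were seen and is given as a description, the log2 ratio of Mobp to Mag was 1.55 to 2.21 in vehicle and 1.78 to 2.77 in rapamycin libraries. The highest ratios were 2.77 in female rapamycin 1, 2.75 in female rapamycin 2 and 2.63 in male rapamycin 2. All of these were batch 1 libraries, and they had the lowest exon length slopes and the highest mitochondrial shares. The ratio also differed by batch: its mean was 1.96 in vehicle and 2.55 in rapamycin libraries of batch 1, and 1.56 and 1.91 in batch 2.

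**Figure D1:**
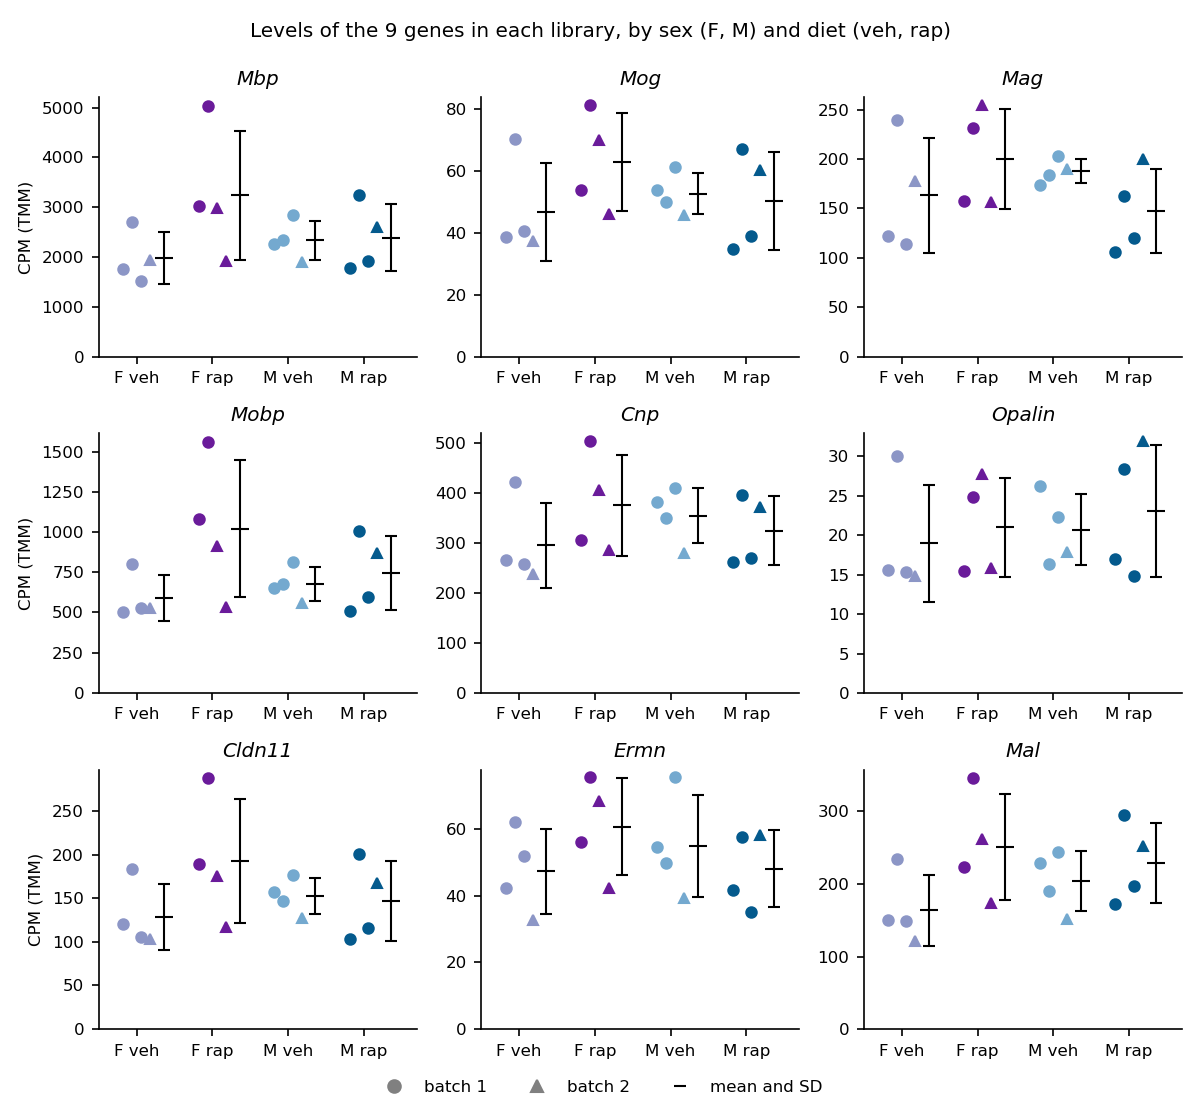
Level of each of the 9 genes in CPM (vertical axis, from 0) in every library, by sex (F, M) and diet (veh, rap); circles are batch 1, triangles batch 2, and the black bar is the mean and SD of 4 libraries. Female rapamycin libraries reach highest for Mbp (5032 CPM) and Mobp (1558 CPM), and vehicle and rapamycin libraries overlap in every panel.

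In females alone all 9 members had a higher estimate under rapamycin, with a median of 0.46 (log2) against 0.02 for all genes, and 0.70 without female vehicle replicate 2. edgeR called 0 of 9, against 0.0121% of all genes, and 4 members had an unadjusted p under 0.05 (Mbp, Mobp, Cldn11 and Mal), against 23.1% of all genes. DESeq2 called 3 (Mbp, Mobp and Mal), against 8.98% of all genes. The estimate was 0.83 ± 0.25 for Mobp (log2, SE; 95% interval 0.30 to 1.37; edgeR adjusted p = 0.0833), which is also the smallest adjusted p of the members. It was 0.75 ± 0.24 for Mbp, 0.70 ± 0.22 for Mal and 0.64 ± 0.24 for Cldn11, with adjusted p of 0.0937, 0.0850 and 0.126. Ermn, Mog and Cnp lay at 0.43, 0.46 and 0.40, and Mag and Opalin at 0.24 and 0.13. For every member the female groups overlapped, where 5.78% of all genes did not. Leaving out female rapamycin 2, which held the highest value of 6 members, lowered the estimate of Mobp to 0.58, of Mal to 0.53, of Mbp to 0.46 and of Cldn11 to 0.40. Without the filter on low counts edgeR called 6 members in females (Mbp, Mog, Mobp, Cldn11, Ermn and Mal), against 5.55% of genes, and with batch 1 alone it called Mobp, against 7.75%.

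In males the estimates lay on both sides of 0, with 4 members positive, 5 negative and a median of -0.03 (log2), against 0.01 for all genes. edgeR called 0 of 9 members and 0% of all genes, 0 members had an unadjusted p under 0.05 against 12% of all genes, and DESeq2 called 0 against 0.109%. The male groups overlapped for each member, where 6.13% of all genes did not. The largest positive estimates were 0.20 ± 0.21 for Mal and 0.17 ± 0.25 for Mobp (log2, SE). The lowest was -0.37 ± 0.23 for Mag, whose 95% interval ran from -0.84 to 0.11 (edgeR adjusted p = 0.513). Mag stood at 174, 183, 203 and 189 CPM in male vehicle mice, a narrow range, and at 106, 162, 120.1 and 200.2 CPM in male rapamycin mice. The 200.2 CPM came from the library whose sex genes go against its label. Without that library the estimate was 0.019 for Mal, -0.060 for Mobp and -0.51 for Mag, the median of the 9 was -0.23 with 1 positive, and edgeR called 0 members. The median was also -0.18 without male rapamycin replicate 2, and it was above 0, with 7 members positive, without male rapamycin replicate 1 (0.14), male rapamycin replicate 3 or male vehicle replicate 3 (0.03). Male rapamycin mice without it had member sums of 3030, 5459 and 3306 CPM.

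The difference of the diet estimates between the sexes was tested directly as an interaction. It was positive (higher in females) for 8 of 9 members, with a median of 0.59 on the log2 scale against 0.00 for all genes, and Opalin had -0.02. The largest was 0.69 ± 0.34 for Mbp (log2, SE; 95% interval -0.03 to 1.42; unadjusted p = 0.0591 and adjusted p = 0.999 by edgeR's quasi-likelihood test). edgeR called 0 of 9 members and 0% of all genes, 0 members had an unadjusted p under 0.05 against 2.17% of all genes, and DESeq2 called 0 members. The sex difference of the diet response was therefore not shown for any member. Without the library labelled male rapamycin 4 edgeR also called 0 members, and 8 members, which vary together, had an unadjusted p under 0.05, against 3.13% of all genes in that fit.

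**Figure D2:**
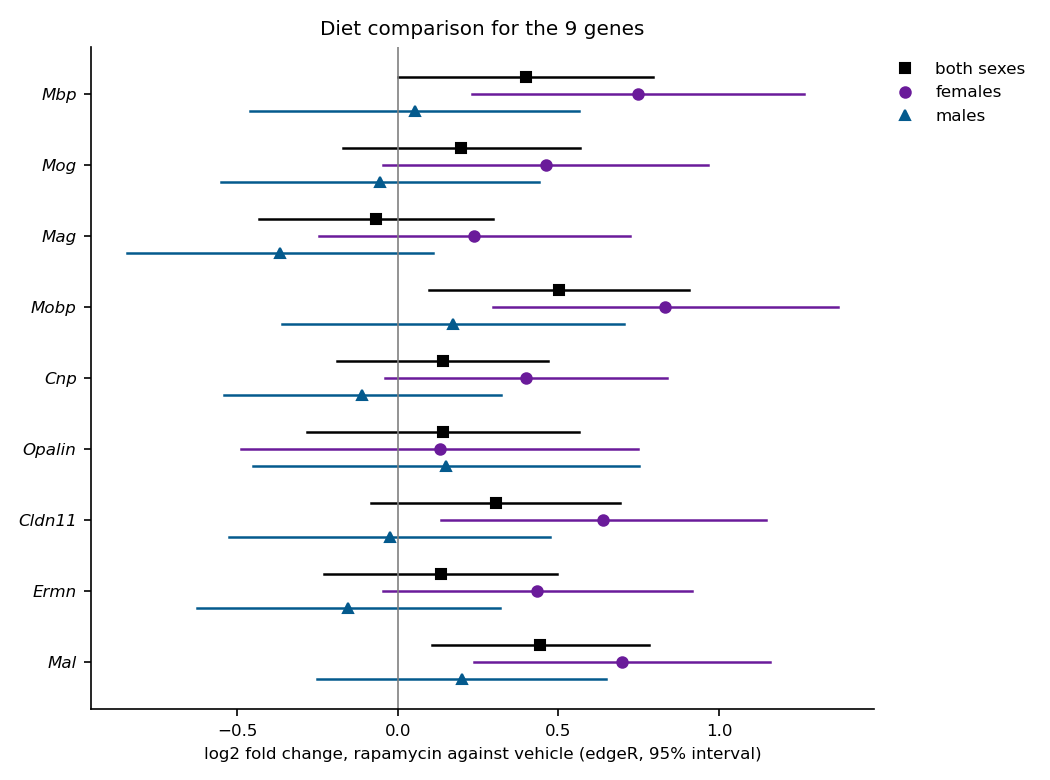
Log2 fold change of rapamycin against vehicle (horizontal axis) for each of the 9 genes in both sexes (squares), females (circles) and males (triangles), with 95% intervals from edgeR. All 9 female points lie above 0, from 0.13 for Opalin to 0.83 for Mobp, and the male points lie between -0.37 and 0.20.

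Between the vehicle mice of the 2 sexes, all 9 members had a lower estimate in females, by a median of -0.21 (log2). edgeR called 0 of 9 against 0.0121% of all genes, 0 had an unadjusted p under 0.05 against 3.55%, and DESeq2 called 0 against 0.0544%. Mal had the lowest, -0.32 ± 0.21 (log2, SE; 95% interval -0.77 to 0.13). Female vehicle 2 stood apart from its group: its member sum was 4750 CPM, while the other 3 female vehicle libraries lay between 2774 and 3197 CPM, and the male vehicle libraries lay between 3309 and 4843 CPM. The median of the 9 estimates was -0.44 without female vehicle 2, -0.12 without female vehicle 3 and -0.14 without male vehicle 3. The female diet comparison uses the same female vehicle libraries.

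Between batches, 7 members had a lower estimate in batch 2 and Mag and Opalin a higher one. edgeR called 0 of 9 members against 35.5% of all genes, 0 had an unadjusted p under 0.05 against 45.1%, and DESeq2 called 0 against 38% of all genes. Without the filter on low counts edgeR called Mal, at 1 of 9 against 20.8%. The estimates ran from -0.30 for Mobp to 0.25 for Mag (log2), and the median was -0.23 against 0.02 for all genes. It was -0.09 without female rapamycin 2 or without female vehicle 4. No member separated the batches, where 7.21% of all genes did. Within batch 1 the difference of mean log2 CPM between rapamycin and vehicle was 0.43 for Mobp, 0.35 for Mbp and 0.29 for Mal, and it was negative for Mag (-0.16), Ermn (-0.10), Opalin (-0.06) and Cnp (-0.02). Within batch 2 it was positive for all 9, from 0.12 for Mag to 0.73 for Mal. In batch 2, with 2 vehicle and 3 rapamycin libraries, Mog, Cnp, Ermn and Mal did not overlap between diets, 4 of 9 where 26.2% of all genes did not. Male rapamycin 4, whose sex genes go against its label, was among these rapamycin libraries. In batch 1, 0 of 9 did not overlap, against 4.59%. By sex the batch 1 differences of Mobp and Mbp were 1.12 and 1.01 in females, with 3 vehicle and 2 rapamycin libraries. They were -0.08 and -0.14 in males, with 3 and 3 libraries. In batch 2 the order was the other way, at 0.41 and 0.30 in females, with 1 vehicle and 2 rapamycin libraries. The male values there were 0.65 and 0.45, from 1 library of each diet, the rapamycin one being male rapamycin 4.

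The members varied together from library to library. Across the 16 libraries, with batch means removed, the 36 pairs of members had Pearson correlations between 0.63 (Mobp with Opalin) and 0.97 (Mbp with Mobp) and a median of 0.86. These are descriptions, since the points share libraries and depth. The summed level ran from 2774 CPM in female vehicle 3 to 8142 CPM in female rapamycin 2. Female rapamycin 1, 4 and 5 had 5104, 5153 and 3303 CPM. In bulk tissue, fewer oligodendrocytes (or less white matter in the dissected piece) and less RNA per cell cannot be told apart. After the 4 groups of sex and diet were fitted together with batch, the SD between libraries was 0.33 for Cnp to 0.47 for Opalin (log2). The median over all genes was 0.24, and between 65.7% and 80.2% of genes varied less than a given member.

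**Figure D3:**
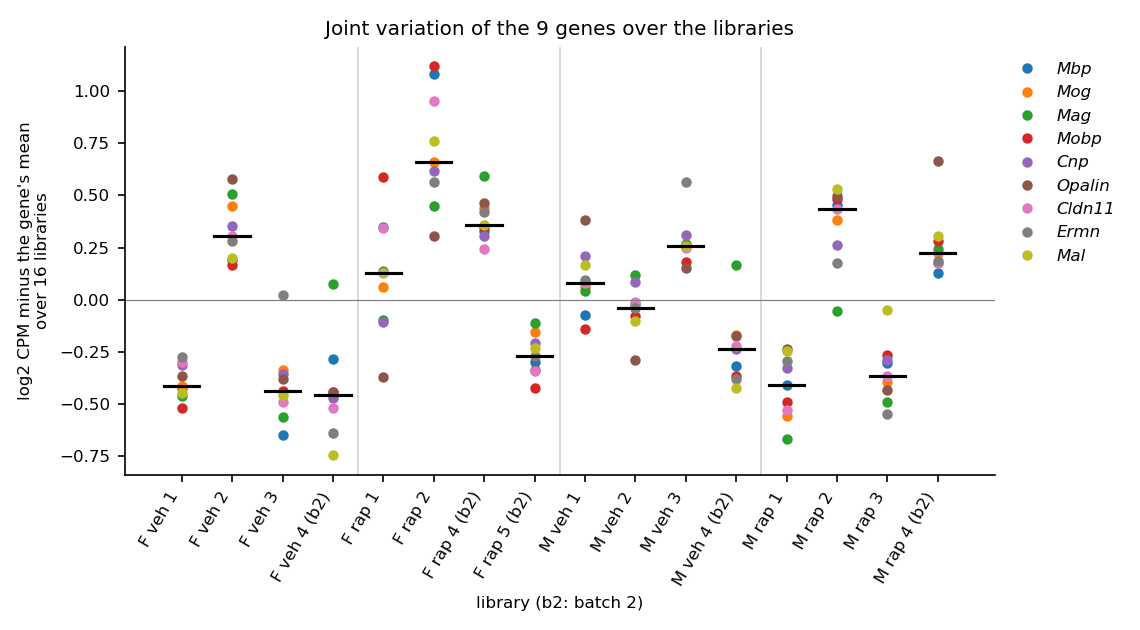
Log2 CPM of each of the 9 genes minus its own mean over 16 libraries (vertical axis), library by library; the black bar is the median of the 9 genes and b2 marks batch 2. The genes move together, from low in female vehicle 4 (the lowest library for 4 genes) to high in female rapamycin 2 (the highest for 6), with high and low libraries in each group.

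The gene whose pattern was most like the mean of the members, again with batch means removed, was Qdpr (r = 0.99 over 16 libraries), which regenerates tetrahydrobiopterin. Also among the 10 most alike were Prr18, Nkx6-2, Plekhb1, Tspan2, Bcas1, Ppp1r14a, 2810468N07Rik and Gatm, the last with r = 0.90. Of the 10 genes, 7 were on the list of other myelin and mature oligodendrocyte genes. Qdpr, at 0.16 ± 0.12 (log2, SE), was not called between diets (edgeR adjusted p = 0.362).

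The rest of the oligodendrocyte lineage was followed with lists of known genes that share some entries, and all of the listed lineage genes could be tested. Of 45 other myelin and mature oligodendrocyte genes, edgeR called 0 higher and 1 lower under rapamycin over both sexes, where 6.46% of all genes were called higher and 6.86% lower. The gene was Tppp, a tubulin-polymerising protein, which fell by 0.32 on the log2 scale (SE 0.10; adjusted p = 0.0373). The median of these 45 genes was 0.00 over both sexes, 0.20 in females with 39 of 45 positive, and -0.21 in males with 10 of 45 positive. Their interaction of sex and diet had a median of 0.48 with 42 of 45 positive, edgeR called 0, and it was not shown for any of them.

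Of 11 genes of myelin lipid synthesis, which make the galactolipids and long fatty acids of the sheath, edgeR called 0 in either direction over both sexes. Their median was 0.08 (log2). In this comparison, which also gave the calls below, 13.3% of all genes were called. Ugt8a, which makes galactocerebroside, had -0.26 ± 0.16 (log2, SE; adjusted p = 0.288). Of 12 oligodendrocyte transcription factors 1 was called: Zeb2, a zinc-finger repressor that other brain cells also express, fell by 0.39 (log2; SE 0.11; adjusted p = 0.0278). Sox10 and Myrf, the factors whose motifs were searched above, had -0.08 ± 0.13 and -0.23 ± 0.17 (log2, SE; adjusted p = 0.734 and 0.383). Of 19 precursor cell genes 1 was called: Tnr, tenascin R of the extracellular matrix, fell by 0.60 (log2; SE 0.15; adjusted p = 0.0205).

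Of 14 genes of newly formed oligodendrocytes 2 were called, against 13.3% of all genes. Nfasc, neurofascin of the node and paranode, which neurons also express, fell by 0.37 (log2; SE 0.11; adjusted p = 0.0337), and Tmem108 fell by 0.22 (log2; SE 0.07; adjusted p = 0.0452). Of 14 genes that oligodendrocytes raise in disease 1 was called: Plin4, a coat protein of lipid droplets, rose by 1.34 (log2; SE 0.38; adjusted p = 0.0295). The 14 disease genes had a median of 0.03 (log2), with 7 positive and 7 negative. C4b and Serpina3n, picked by name from this list, had -0.41 ± 0.23 and -0.33 ± 0.23 (log2, SE; adjusted p = 0.246 and 0.362) and were not called. Of the 7 Schwann cell markers that could be tested 0 were called. The medians of the lineage and Schwann lists lay between -0.13 for the Schwann markers and 0.08 for the lipid genes, against 0.20 for the 9 members. Each call was by edgeR's quasi-likelihood test over both sexes, which called 13.3% of all genes.

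**Figure D4:**
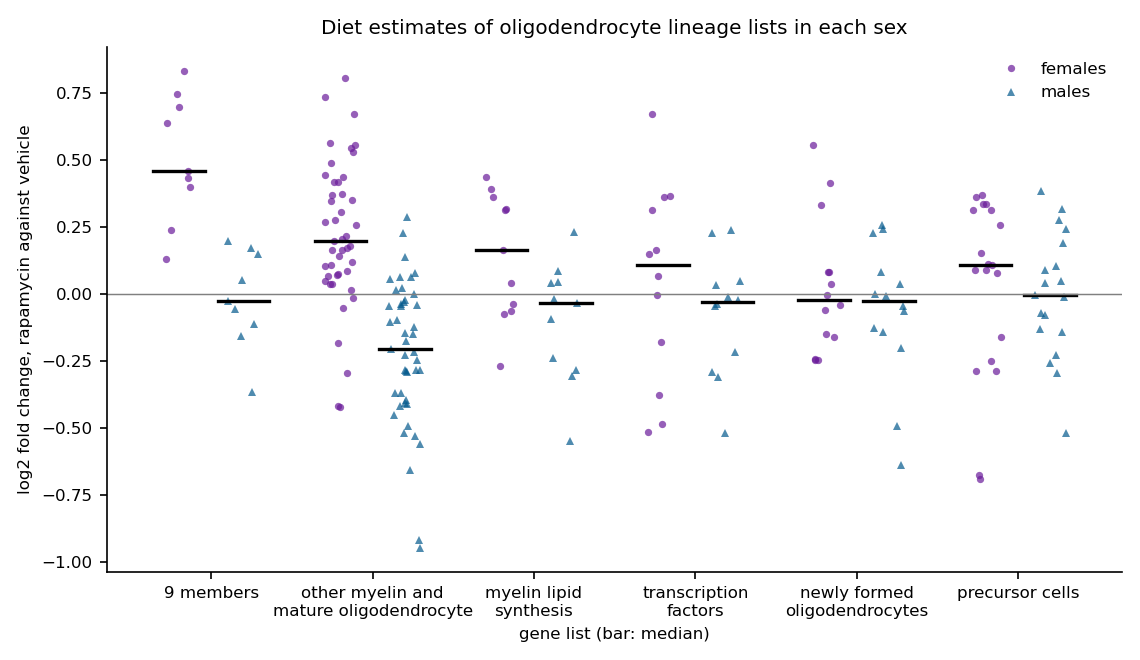
Log2 fold change of rapamycin against vehicle (vertical axis) for every tested gene of 6 oligodendrocyte lineage lists, in females (circles) and males (triangles), with list medians as bars. The 9 members have medians of 0.46 in females and -0.03 in males, and the 45 other myelin genes 0.20 and -0.21.

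Markers of the other cells and regions that a piece of cortex can hold were counted in the same comparison, in which 13.3% of all genes were called (6.46% higher and 6.86% lower). edgeR called 2 of 10 astrocyte genes (Aldoc and Ntsr2, both higher), 0 of 10 microglia, 3 of 10 endothelial (Ly6c1, Egfl7 and Kdr, 2 higher and 1 lower), 1 of 10 excitatory neuron (lower) and 0 of 10 inhibitory neuron genes. It called 2 of 8 deep cortical layer (Tle4 and Bcl11b, lower), 0 of 10 striatum, 1 of 10 thalamus (Rora, lower), 0 of 10 hippocampus, 5 of 10 choroid plexus (all lower) and 0 of 5 blood genes. The choroid plexus genes summed to 2013 CPM in 1 vehicle library, male vehicle 4, and the next highest sum was 337 CPM in female vehicle 2. The genes of the deep layers, which lie next to the white matter, summed to between 230 and 565 CPM in vehicle and between 202 and 447 CPM in rapamycin libraries. The precursor genes summed to between 1010 and 1225 CPM in vehicle and between 851 and 1313 CPM in rapamycin libraries. Their part in the members' differences was not tested.

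The lowest exon length slopes and the highest mitochondrial shares fell in libraries with high member sums, but the other libraries did not all follow this. The 3 libraries with the lowest slopes were female rapamycin 2 (-0.127), male rapamycin 2 (-0.122) and female rapamycin 1 (-0.121), which also had the highest mitochondrial shares, at 6.98%, 6.99% and 6.88%. Their members summed to 8142, 5459 and 5104 CPM. Female rapamycin 4 had a slope of 0.064, a share of 4.17% and a sum of 5153 CPM. Female vehicle 3 and male rapamycin 1 had the next highest shares, 5.47% and 5.08%, with sums of 2774 and 3030 CPM. Female vehicle 2 and male vehicle 3 had shares of 3.85% and 3.63% and sums of 4750 and 4843 CPM. With the slope as a further term, the both-sexes estimate was positive for 1 of 9 members (Mal, 0.11) with a median of -0.17 (log2), and edgeR called 0 members and 0 genes in all. With the mitochondrial share as the term, 3 of 9 were positive and the median was -0.05. In females the median of the 9 was 0.10 with the slope and 0.25 with the share, against 0.46 without either. The part of RNA quality or tissue composition in these values was not tested.

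**Figure D5:**
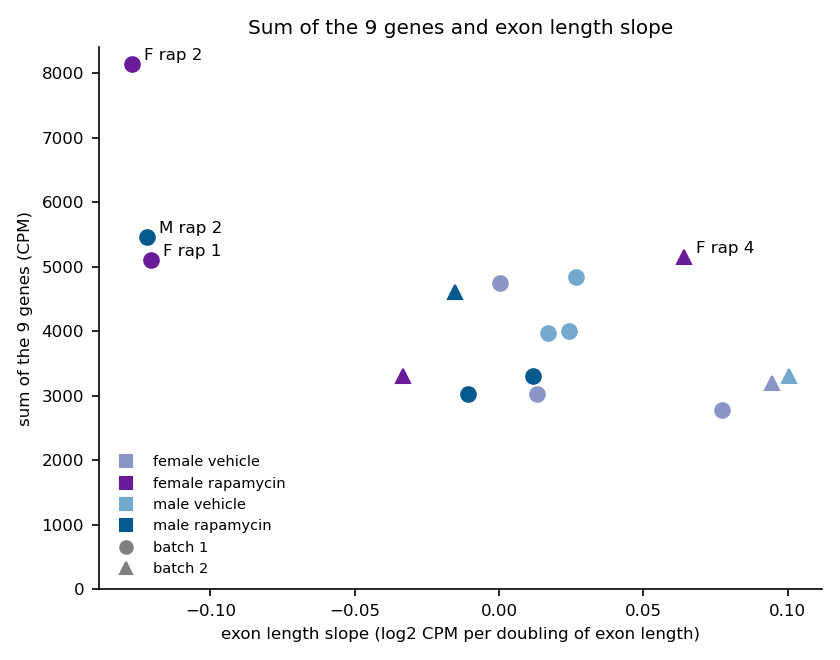
Summed CPM of the 9 genes (vertical axis, from 0) against the exon length slope of the library (horizontal axis, log2 CPM per doubling of exon length), coloured by group; circles are batch 1 and triangles batch 2. Female rapamycin 2, male rapamycin 2 and female rapamycin 1 combine slopes of -0.127 to -0.121 with sums of 8142, 5459 and 5104 CPM, and female rapamycin 4 has 5153 CPM at 0.064.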

How the data were processed

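Poly(A) RNA of cortex was sequenced as 150 bp read pairs. Per the labels, the submitters' processing notes name Trim Galore, FastQC 0.11.9, Trimmomatic 0.39, HISAT2 2.2.1, featureCounts 2.0.3 and the builds mm10 and GRCm38.p4. The deposited count table holds whole read pairs per gene name over exons, without regard to strand, so reads of overlapping genes on the other strand cannot be told apart. The 4 group tables of the same libraries were not used. Here, genes that passed filterByExpr (minimum count 10) entered edgeR's quasi-likelihood test (version 4.0.16, R 4.3.3) as deposited counts with TMM factors. The both-sexes and batch comparisons came from a fit with sex, batch and diet, the others from a fit with the 4 groups and batch. Benjamini-Hochberg adjustment ran over all 16553 genes, and a gene was called at an adjusted p under 0.05. log2 CPM used a prior count of 2. DESeq2 1.42.0 was an alternative, with other scalings, no filter, no batch term, batch 1 alone, a replicate block, both library measures as terms, and each library left out. Named genes were the 9 members, genes called in the other lists, and the 10 most alike. Outside this rule, Ugt8a, Sox10, Myrf, C4b and Serpina3n, none of them called between diets over both sexes, were picked by name from their lists. The Schwann cell markers Pmp2, Drp2 and Pmp22 were also named. Promoter windows came from RefSeq on GRCm38.p6. The fit was tested on simulated data. The members and lists were chosen with earlier results of these data known. Some genes that these rules would name are not reported here.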

Additional observations from a re-analysis of the deposited data

Results flagged for a closer look

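In 4 of 36 groups of 4 libraries (9 members in 4 groups) 1 library lay far from the other 3 by Dixon's criterion at 95%, which chance meets in about 1 in 20 groups. All 4 were in female vehicle 2, with 70.4 CPM of Mog, 804 CPM of Mobp, 422 CPM of Cnp and 30.1 CPM of Opalin. The members vary together, so these 4 are not independent of each other. Without this library the female diet estimate of Mobp was 0.99, of Mog 0.70, of Cnp 0.59 and of Opalin 0.44 (log2), and edgeR called 0 members in females.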

How the results depend on the processing

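edgeR called 0 of 9 members in each of the 6 comparisons, and this count held when edgeR used DESeq2's size factors, upper-quartile factors or either library measure as a term, and in the 5 comparisons that can be fitted with no batch term. DESeq2 called 2 in both sexes and 3 in females, no filter on low counts called 3, 6 and, between batches, 1 (Mal), and batch 1 alone called 1 in females (Mobp). Leaving out 1 library gave 0 to 2 members in both sexes (2 without male rapamycin replicate 1 or 3) and 0 elsewhere. The calls over all genes in those fits ran from 719 to 3352 in both sexes, 1 to 2104 in females and 0 to 1 in males. They ran from 0 to 6 between vehicle mice by sex and from 4265 to 6211 between batches, and were 0 for the interaction.

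Between libraries of different groups, correlations of deviations from group and batch means ran from -0.43 to 0.37 (median 0.03) over 21 same-number pairs. Over 33 pairs with other numbers in the same batch they ran from -0.40 to 0.24 (median -0.12). Whether replicate numbers pair the libraries was not tested. With a replicate block in place of batch 0 members were called in every comparison it could test, 1298 genes in all were called in both sexes, and 2 estimates changed sign: in males Mbp -0.013, and for the interaction Opalin 0.12.

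With batch 1 alone the estimates that changed sign were, on the log2 scale, in both sexes Opalin -0.063, Ermn -0.074, in females Opalin -0.0082, in males Mbp -0.094, Mobp -0.020, Opalin -0.11, and for the interaction Opalin 0.10.

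With the exon length slope the estimates that changed sign were, on the log2 scale, in both sexes Mbp -0.14, Mog -0.21, Mobp -0.045, Cnp -0.17, Opalin -0.18, Cldn11 -0.26, Ermn -0.10, in females Mag -0.069, Opalin -0.24, in males Mbp -0.36, Mobp -0.24, Opalin -0.14, Mal -0.048, and for batch 2 against batch 1 Mbp 0.23, Mog 0.26, Mobp 0.18, Cnp 0.11, Cldn11 0.21, Mal 0.0067.

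With the mitochondrial share the estimates that changed sign were, on the log2 scale, in both sexes Mog -0.054, Cnp -0.017, Opalin -0.12, Cldn11 -0.064, Ermn -0.11, in females Opalin -0.13, in males Mbp -0.27, Mobp -0.24, Opalin -0.11, Mal -0.00018, and for batch 2 against batch 1 Mbp 0.023, Mog 0.11, Mobp 0.043, Cldn11 0.0027.

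Leaving out 1 library reversed 33 values of small estimates, over these ranges: Cldn11 -0.24 to 0.14 (males), Cnp -0.27 to 0.0012 (males), Ermn -0.39 to 0.017 (males), Mag -0.18 to 0.031 (both sexes), Mbp -0.11 to 0.19 (males), Mobp -0.060 to 0.35 (males), Mog -0.19 to 0.0066 (batch 2 against batch 1), Mog -0.23 to 0.10 (males), Opalin -0.12 to 0.16 (batch 2 against batch 1), Opalin -0.45 to 0.019 (vehicle mice by sex), Opalin -0.18 to 0.29 (the interaction), Opalin -0.046 to 0.44 (females), Opalin -0.080 to 0.32 (males). The cause of these changes was not tested. With 4 libraries a group, intervals of the sex-specific estimates span more than 0.80 on the log2 scale.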
